A study of Mus musculus with 16 samples.

Results

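The complement genes C1qa, C1qb, C1qc, C4b, C3, Serping1, Cd55 and Cd59a were examined in bulk brain RNA of 16 female mice. They were taken by symbol from the 55487 genes of the count table. Each of the 8 symbols matched 1 row, and all 8 genes were among the 18609 that had at least 10 counts in at least 4 mice and were tested. The 4 groups of 4 mice were sequenced: CETPtg vehicle (mice S1 to S4), CETPtg evacetrapib (A to D), APPtg/CETPtg vehicle (S5 to S8) and APPtg/CETPtg evacetrapib (E to H). Every mouse was on a C57BL/6J background and carried a human CETP transgene, which encodes the plasma lipid transfer protein that mice lack. APPtg/CETPtg mice also carried human APP with the Swedish and Indiana mutations under the neuronal Thy1 promoter, so the model produces amyloid from neurons. A diet with 1% cholesterol was given from 11 weeks of age, and evacetrapib, an inhibitor of CETP, was injected at 30 mg per kg per day for 11 weeks. Mice without the CETP transgene were not analysed here.

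Complement is a cascade of serum and tissue proteins that tags targets for removal. In the classical pathway C1q, assembled from A, B and C chains, binds a target and leads to cleavage of C4 and then of C3, the component on which all pathways meet. Host cells are shielded by C1 inhibitor (Serping1), by CD55, which breaks up the enzymes that cleave C3, and by CD59, which blocks the membrane attack complex. In the brain C1q is made mainly by microglia, C4 and C3 can be made by astrocytes and other glia, and complement proteins are known for tagging synapses during their removal by microglia. The study listed Cd59a among the genes that changed with evacetrapib in these same mice. Its treatment values are therefore a description, without a test. The other genes complete the pathway around it.

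Gene counts summed to between 21391335 and 55453789 per mouse. Most low totals were in APPtg/CETPtg mice, at 21391335 to 25854334 under evacetrapib and 21866883 to 27398792 in S5 to S7 under vehicle. S8 had the highest total. The CETPtg mice were at 28626139 to 37709734 under vehicle and 33684250 to 46800787 under evacetrapib. Depth thus differed between the genotypes as well, apart from S8. Levels are given as CPM (the count of a gene relative to all counts of the mouse) after scaling by trimmed mean of M values (TMM). The Thy1 gene, whose promoter drives the APP transgene, was at 684 to 807 CPM in the 8 CETPtg mice and at 865 to 2063 CPM in the 8 APPtg/CETPtg mice. Mouse App, to which the human transgene need not map, was at 1968 to 2322 and 1989 to 2720 CPM and did not pass the test (log2 fold change 0.05, SE 0.053, adjusted p = 0.574, edgeR). The 10 microglia markers were all detected in every mouse, so the tissue held the cells in which C1q is mainly made. In the index plate positions given by the labels, the column separates the genotypes completely, and the effect of genotype and of plate column cannot be told apart. The plate row separates the treatments completely (G, H, A and B for evacetrapib, C to F for vehicle), and evacetrapib and plate row cannot be told apart either.

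The 3 C1q genes lie next to each other on the minus strand of chromosome 4 of GRCm38, C1qb at chr4:136880129-136886187, C1qc at chr4:136889804-136893065 and C1qa at chr4:136895917-136898803. Because their transcripts moved together between the genotypes, the RefSeq promoters of the pair that had an entry are shown, as the 250 bases before the start of transcription on build GRCm38.p6, with the core of the PU box in capitals (GAGGAA on either strand), the motif of the microglial and macrophage factor PU.1. C1qb is at chr4:136886201-136886450 and C1qc at chr4:136892915-136893164, both on the minus strand.
C1qb: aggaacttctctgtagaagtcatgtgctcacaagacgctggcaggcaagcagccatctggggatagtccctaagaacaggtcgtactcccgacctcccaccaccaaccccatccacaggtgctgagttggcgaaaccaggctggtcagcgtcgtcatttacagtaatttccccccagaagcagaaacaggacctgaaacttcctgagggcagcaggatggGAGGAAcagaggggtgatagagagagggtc
C1qc: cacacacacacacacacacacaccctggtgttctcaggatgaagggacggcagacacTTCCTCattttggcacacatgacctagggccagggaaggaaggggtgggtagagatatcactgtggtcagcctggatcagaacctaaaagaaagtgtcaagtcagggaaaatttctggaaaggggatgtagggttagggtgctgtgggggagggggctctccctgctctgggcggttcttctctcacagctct
Counted from the RefSeq start, the motif began at position -30 in C1qb and at -193, on the opposite strand, in C1qc. The C1qc gene as placed above, from GENCODE M21, reaches chr4:136893065, so part of its 250 bases lies within that gene. The motif also occurred once in the Cd59a promoter, at -62, and not in those of C3 and Cd55. Promoters were available for 5 of the 8 genes. Of all 32851 promoters of this length, 23.3% held the motif, so its presence is common and marks no site of binding.

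Of the 8 genes, the C1q chains were the most abundant per length. C1qb was at 43.3 ± 6.36 CPM per kb of exons (SD, n = 16), C1qa at 37.9 ± 4.80 and C1qc at 21.7 ± 2.11. These levels stood at the 94.4, 93.3 and 87.7 percentiles of all genes tested. In CPM, not divided by length, C1qc was at 41.9 on average and C1qa at 39.5. Their order per kb thus rests on the annotated exon length, 1931 bases for C1qc and 1040 for C1qa. C4b, the gene of mouse C4, followed at 7.62 ± 1.79 CPM per kb. Not divided by its exon length of 5695 bases, C4b was at 43.4 CPM on average, above C1qc and C1qa. Its place below them thus rests on length as well. The regulators were lower: Cd59a was at 2.98 ± 0.764, Serping1 at 2.86 ± 0.481 and Cd55 at 0.883 ± 0.132 CPM per kb. C3 was the lowest, at 0.285 ± 0.0926 CPM per kb and 21 to 84 counts per mouse, the 12.3 percentile. Between neighbours in this order, the ranges over mice did not overlap except for C1qb and C1qa and for Cd59a and Serping1. C1qb exceeded C1qa in 16 of 16 mice, by a ratio of 1.04 to 1.28. Cd59a exceeded Serping1 in only 9 of 16 mice and their order is not set by these data.

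**Figure D1:**
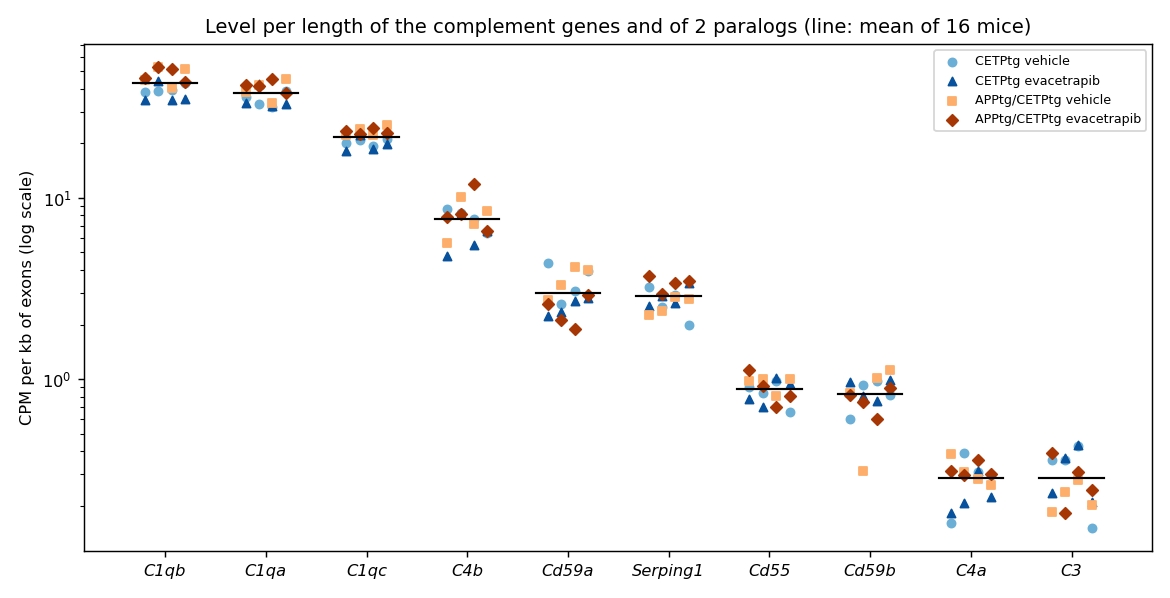
Level of each complement gene and of the paralogs Cd59b and C4a in CPM per kb of exons, on a log scale; each point is a mouse, coloured by group, and the line is the mean of 16 mice. The 3 C1q genes sit at 21.7 to 43.3 CPM per kb on average, and C3 and C4a lie near 0.285.

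Reads of some of these genes can belong to a near copy. Of the 100-base windows of C4b transcripts, 15.2% occur in C4a transcripts, and 4.27% of those of Cd55 occur mostly in Cd55b. For Cd59a the share was 0.276%, 5 windows of Cd59b, and it was 0 for the C1q genes, C3 and Serping1. Cd55 also overlaps the opposite-strand gene Gm16083, and the strand setting of the counting is not stated. C4a was at 0.286 CPM per kb, Cd59b at 0.823, and Cd55b had 0 to 3 counts per mouse. Cd59a and Cd59b, neighbours on chromosome 2 (chr2:104095801-104115354 and chr2:104069849-104091187, plus strand), encode closely related proteins. The first 90 bases of their coding sequences, from GENCODE M21 transcripts, are shown because the treatment values of Cd59a rest on telling the copies apart. The 4 bases that differ are in capitals.
Cd59a: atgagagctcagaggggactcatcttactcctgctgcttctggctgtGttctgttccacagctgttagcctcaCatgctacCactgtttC
Cd59b: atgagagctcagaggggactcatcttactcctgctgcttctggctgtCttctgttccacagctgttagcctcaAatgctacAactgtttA
Over this stretch 95.6% of the bases were identical, and the coding sequences were 372 and 390 bases long.

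The first question was whether complement transcripts differed between the genotypes. The 3 C1q genes were higher in APPtg/CETPtg than in CETPtg brains, while C4b, C3 and the regulators did not pass the test. Over both treatments, 3 of the 8 genes were called, all of them higher. A gene was called at an adjusted p of 0.05 or less with a change of 5% or more. The background is large: 17.7% of the genes tested were called in this comparison and 9.35% were called as higher in APPtg/CETPtg.

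C1qb was at 41.7, 42.1, 43.1 and 46.8 CPM in the CETPtg vehicle mice, 37.7, 48.2, 37.9 and 38.1 in the CETPtg evacetrapib mice, 48.5, 57.5, 44.1 and 55.8 in the APPtg/CETPtg vehicle mice and 50.3, 57.4, 56.1 and 47.8 in the APPtg/CETPtg evacetrapib mice. The APPtg/CETPtg mice were mostly the higher ones, and 6 of these 8 exceeded every CETPtg mouse, with mouse B the highest CETPtg mouse. The mean was 52.2 against 42.0 CPM (log2 fold change 0.32, SE 0.064, adjusted p = 0.00209, edgeR).

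C1qc was at 38.7, 40.3, 37.5 and 40.9 CPM in the CETPtg vehicle mice, 35.0, 43.1, 36.0 and 38.2 in the CETPtg evacetrapib mice, 43.0, 46.6, 43.1 and 49.1 in the APPtg/CETPtg vehicle mice and 45.1, 43.8, 47.0 and 43.8 in the APPtg/CETPtg evacetrapib mice. Within each treatment the genotypes did not overlap, and over both treatments they overlapped only through mouse B. The mean was 45.2 against 38.7 CPM (log2 fold change 0.22, SE 0.044, adjusted p = 0.00156, edgeR).

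C1qa was at 37.4, 34.3, 33.1 and 40.4 CPM in the CETPtg vehicle mice, 34.6, 44.3, 33.6 and 34.3 in the CETPtg evacetrapib mice, 40.1, 43.6, 34.7 and 47.2 in the APPtg/CETPtg vehicle mice and 43.9, 43.0, 47.3 and 39.6 in the APPtg/CETPtg evacetrapib mice. The genotypes overlapped more than for the other chains, with S7 among the low mice and B among the high ones. The mean was 42.4 against 36.5 CPM (log2 fold change 0.22, SE 0.067, adjusted p = 0.0292, edgeR). This call was lost on leaving out any of 10 of the 16 mice (A, C, D, E, F, G, S2, S3, S6 or S8), with an adjusted p of 0.0547 to 0.0687, while those of C1qb and C1qc held in all 16 fits.

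**Figure D2:**
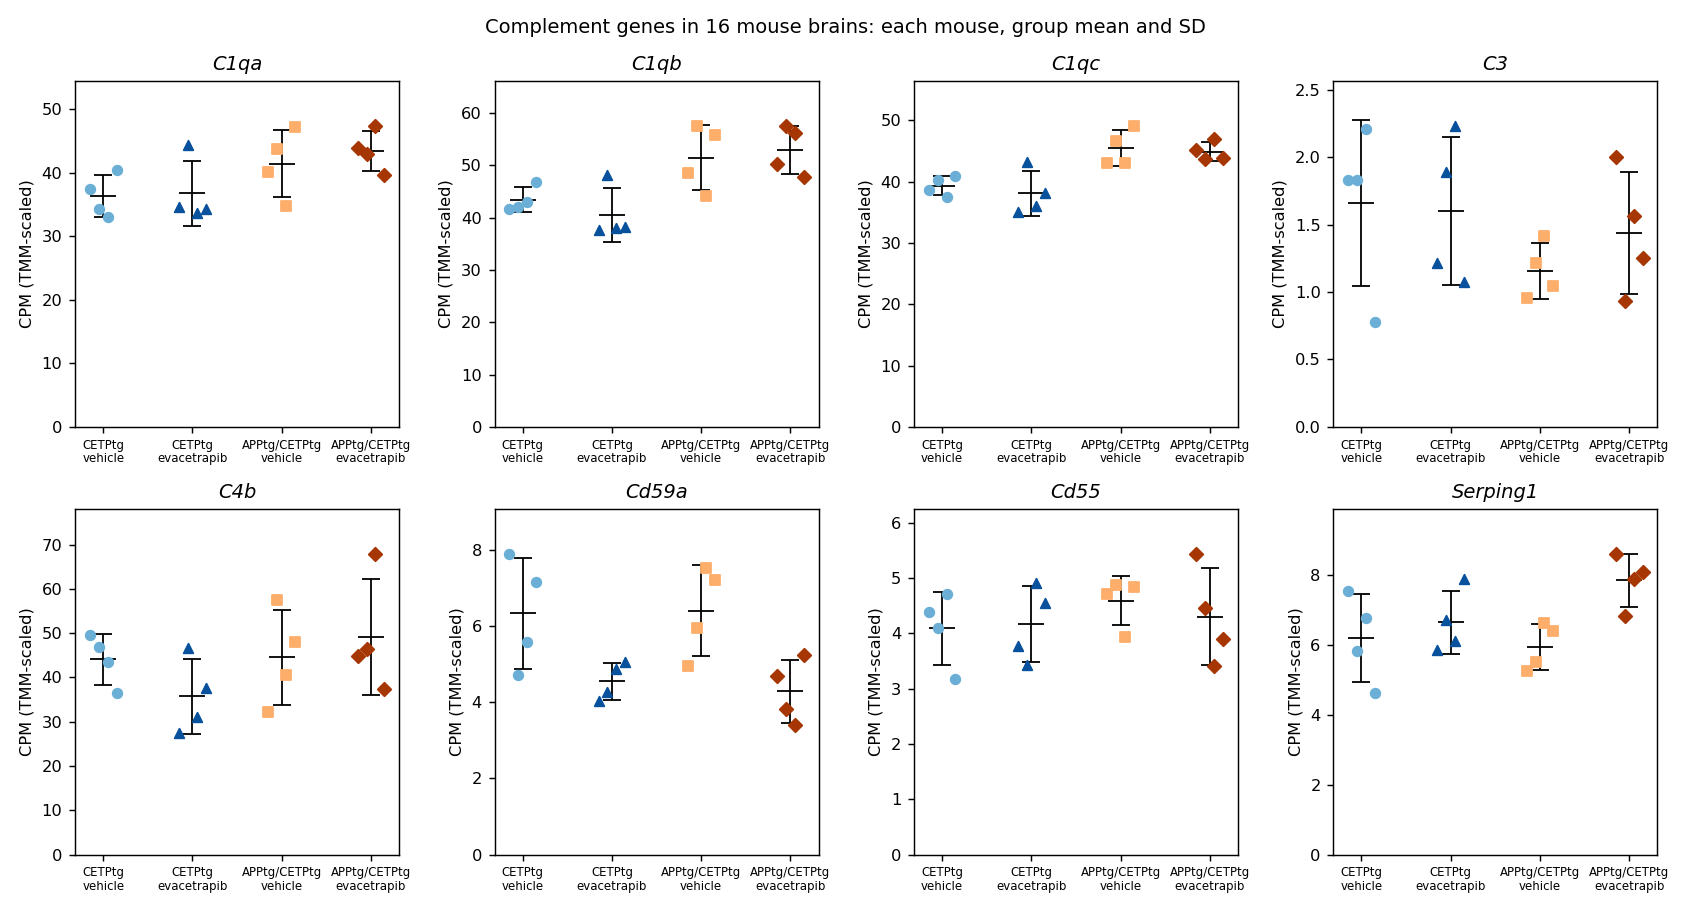
CPM of the 8 complement genes, a panel each, in the 4 groups; each point is a mouse, the cross-line is the group mean and the bars are 1 SD (n = 4), on axes from 0. C1qb and C1qc sit higher in both APPtg/CETPtg groups, and Cd59a sits lower in both evacetrapib groups with overlapping points.

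Within treatments fewer calls were made. Under vehicle, C1qc was called (log2 fold change 0.21, SE 0.063, adjusted p = 0.0392, edgeR), where 10.4% of all genes were called and 5.98% as higher. C1qb and C1qa had log2 fold changes of 0.25 and 0.20 there and were not called. Under evacetrapib, C1qb (log2 fold change 0.39, SE 0.090, adjusted p = 0.0270, edgeR) and C1qc (0.24, SE 0.063, adjusted p = 0.0464) were called, where 2.99% of all genes were called and 1.27% as higher. C1qc was the 1 gene of the 8 whose genotypes did not overlap in either treatment, against 17.0% of all genes under vehicle and 10.8% under evacetrapib. Over both treatments no gene of the 8 was without overlap, against 3.03% of all genes. The calls within treatments depended on single mice. That of C1qc under vehicle held only without A, B, C, S5 or S7 and was lost in the other 11 fits (adjusted p up to 0.122). Under evacetrapib, C1qb was lost without A, C, D, F or G (up to 0.109), and C1qc held only without B, S6 or S8 and was lost in 13 fits (up to 0.170). C1qa was called under evacetrapib without B (adjusted p = 0.0396), and C1qb under vehicle without B or S7 (0.0447 and 0.0391).

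The chains kept close to a fixed proportion. The ratio of C1qb to C1qc counts was 1.12 ± 0.0798 over the 16 mice and that of C1qa to C1qc 0.940 ± 0.0594, each with a coefficient of variation under that of the ratio of C4b to C1qc counts (7.13% and 6.32% against 18.6%). Across the 16 mice, log2 CPM of C1qb and C1qc had a Pearson r of 0.91 (Spearman rho 0.90, 0.78 after subtraction of the group means, 0.87 without the 2 mice farthest from the median). For C1qa the r was 0.89 with C1qb and 0.86 with C1qc. The points share their libraries, and these r are a description.

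The C1q levels followed those of microglia markers across mice. The summed level of the 10 markers was 398 to 436 CPM in the CETPtg vehicle mice, 380 to 425 in the CETPtg evacetrapib mice, 395 to 477 in the APPtg/CETPtg vehicle mice and 417 to 478 in the APPtg/CETPtg evacetrapib mice. Of the 10, 9 had a positive log2 fold change between the genotypes, with a median of 0.12 beside 0.0046 over all genes tested. The called markers were 2 of the 10, beside 17.7% of all genes, namely Tmem119, a microglial surface protein (log2 fold change 0.30), and Aif1, which encodes IBA1 (0.38). The mean log2 CPM of the markers had an r of 0.90 with C1qa, 0.85 with C1qb and 0.82 with C1qc over 16 mice. Relative to that mean, the chains differed less between the genotypes: APPtg/CETPtg minus CETPtg was 0.18 for C1qb, 0.09 for C1qc and 0.08 for C1qa on the log2 scale, with no test. On this relative scale C1qb was at 0.474 to 0.763 in the CETPtg mice and at 0.688 to 0.961 in the APPtg/CETPtg mice. In bulk RNA, more cells of a type and more RNA per cell cannot be told apart, and the part of the microglia markers in the C1q difference was not tested. Oligodendrocyte markers had lower values in APPtg/CETPtg mice, 7 of 7 with a negative log2 fold change (median -0.20). Of the 7, 4 were called, beside 1559 of all 18609 genes called lower. The mean of these 7 markers had an r of -0.60 with C1qb, which was -0.22 after subtraction of the group means. Of 8 astrocyte markers, Gja1 and Sox9 were called lower and Aldoc higher, with a median of -0.04. The part of these lists in the C1q difference was not tested either. The 9 tested genes of glia around plaques, such as Clec7a and Itgax, had log2 fold changes with a median of 0.03. Of them, 0 were called in edgeR and 1 was at an unadjusted p below 0.05, beside 5685 of all 18609 genes. Cst7, also on that list, was not tested.

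**Figure D3:**
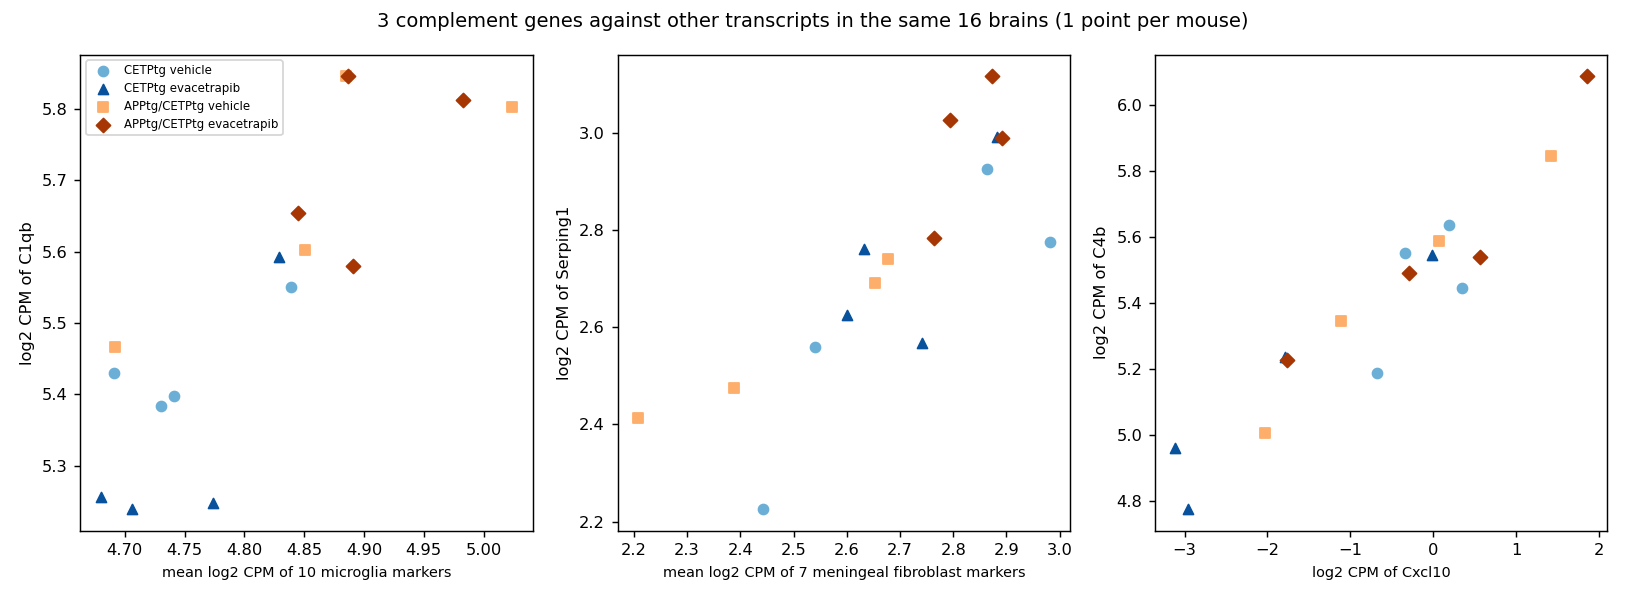
Log2 CPM of C1qb against the mean of 10 microglia markers, of Serping1 against the mean of 7 meningeal fibroblast markers, and of C4b against Cxcl10; each point is 1 of the 16 mice, coloured by group. In each panel the levels rise together, with r of 0.85, 0.82 and 0.95.

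C4b carries the next step of the classical pathway. It was at 49.7, 46.8, 43.5 and 36.4 CPM in the CETPtg vehicle mice, 27.4, 46.7, 31.1 and 37.6 in the CETPtg evacetrapib mice, 32.1, 57.4, 40.6 and 48.0 in the APPtg/CETPtg vehicle mice and 44.9, 46.4, 67.9 and 37.5 in the APPtg/CETPtg evacetrapib mice. The groups overlapped in every comparison, with mouse G the highest and mouse A the lowest. The genotypes had a log2 fold change of 0.24 (SE 0.14, adjusted p = 0.254, edgeR) over both treatments, 0.02 under vehicle and 0.46 (SE 0.18, adjusted p = 0.168) under evacetrapib. The last of these was called (adjusted p = 0.0396) when genes with low counts were not removed. The difference between the genotypes in the effect of evacetrapib was 0.45 (SE 0.26, adjusted p = 0.747). C4b varied more between mice than the C1q genes (coefficient of variation 23.4% against 9.74% to 14.7%). The 3 genes most like it across the 16 mice were Cxcl10, a chemokine induced by interferon (r = 0.95), Gm4951 (0.91) and Mx1, an antiviral interferon-induced gene (0.90), each below 1 CPM on average. After subtraction of the group means these r were 0.94, 0.91 and 0.88. The mean log2 CPM of the 9 tested genes of glia around plaques had an r of 0.74 with C4b, and 0.82 within groups. For the 10 microglia markers it was 0.47, and 0.34 within groups. The part of these genes in the C4b values was not tested. C4a, the sex-limited copy, had log2 fold changes of 0.26 for genotype and -0.14 for evacetrapib and was not called.

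C3, the substrate of the C3 convertases, was at 0.775 to 2.21 CPM in the CETPtg vehicle mice, 1.08 to 2.23 in the CETPtg evacetrapib mice, 0.953 to 1.42 in the APPtg/CETPtg vehicle mice and 0.934 to 2.0 in the APPtg/CETPtg evacetrapib mice. The ranges lay over each other in all groups. Its log2 fold change was -0.34 (SE 0.21, adjusted p = 0.286, edgeR) for genotype and 0.10 (SE 0.21, adjusted p = 0.949) for evacetrapib. Counting error alone gives it a coefficient of variation of 16.1%, against 32.5% measured over the 16 mice.

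The second question was whether complement transcripts changed with evacetrapib. Of the 7 genes other than Cd59a, 0 were called over both genotypes, within either genotype, or for the difference between the genotypes in the effect (edgeR). The background was 0.0107% of all genes over both genotypes, 0.0% in CETPtg mice, 0.043% in APPtg/CETPtg mice and 0.0% for the difference. At an unadjusted p below 0.05 there was 1 of the 7 over both genotypes, 0 in CETPtg mice, 1 in APPtg/CETPtg mice (Serping1 in both cases) and 0 for the difference, beside 1472, 1079, 1677 and 1271 of all genes. DESeq2 and limma-voom each called 0 of the 7 in these 4 comparisons. The C1q chains, which differed between the genotypes, had log2 fold changes of 0.04 (C1qa, SE 0.067), -0.03 (C1qb, SE 0.064) and -0.03 (C1qc, SE 0.044) with evacetrapib over both genotypes.

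Cd59a was lower with evacetrapib in both genotypes, on the values it was chosen by. It was at 7.90, 4.71, 5.57 and 7.15 CPM in the CETPtg vehicle mice and at 4.04, 4.26, 4.86 and 5.05 in the CETPtg evacetrapib mice. In the APPtg/CETPtg mice it was at 4.95, 5.95, 7.53 and 7.2 under vehicle and 4.68, 3.82, 3.41 and 5.24 under evacetrapib. In both genotypes the treated mice were the lower ones, but the groups overlapped, through S2 in CETPtg mice and S5 in APPtg/CETPtg mice. The mean over both genotypes was 4.42 against 6.37 CPM, a log2 fold change of -0.53 (SE 0.12), and it was -0.47 (SE 0.17) in CETPtg and -0.59 (SE 0.17) in APPtg/CETPtg mice. The difference between these effects, which did not choose the gene, was -0.12 (SE 0.24, adjusted p = 0.942, edgeR). Genotype left Cd59a at 5.35 against 5.44 CPM (log2 fold change -0.02, SE 0.12, adjusted p = 0.926). Its copy Cd59b had a log2 fold change of -0.03 (SE 0.18, adjusted p = 0.986) with evacetrapib, at 9 to 81 counts per mouse. Cd59a was most like Angptl7 (r = 0.84), Ebpl (0.79) and Shh (0.78) across the 16 mice. These r were 0.68, 0.66 and 0.73 after subtraction of the group means, and Angptl7 was at 0.41 CPM on average.

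Serping1 encodes C1 inhibitor, which inactivates the proteases bound to C1q. It was at 5.26, 5.50, 6.62 and 6.40 CPM in the APPtg/CETPtg vehicle mice and at 8.61, 6.82, 7.88 and 8.08 in the APPtg/CETPtg evacetrapib mice. These groups did not overlap, against 4.29% of all genes. In the CETPtg mice it was at 7.54, 5.84, 6.78 and 4.62 under vehicle and 5.87, 6.72, 6.11 and 7.89 under evacetrapib, with the groups overlapping. The log2 fold change was 0.39 (SE 0.14, adjusted p = 0.395, edgeR) in APPtg/CETPtg and 0.10 (SE 0.14, adjusted p = 0.937) in CETPtg mice, and the difference between them was 0.30 (SE 0.19, adjusted p = 0.781). Over both genotypes it was 0.24 (SE 0.10, adjusted p = 0.575). No other gene of the 8 was without overlap in APPtg/CETPtg mice, and none was in CETPtg mice or over both genotypes, against 3.92% and 0.0537% of all genes.

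Serping1 followed meningeal fibroblast markers across mice. The mean log2 CPM of these markers, over Dcn, Lum, Col1a1, Col1a2, Igf2, Slc6a13 and Ogn, had an r of 0.82 with Serping1 across the 16 mice and 0.82 after subtraction of the group means. The summed level of these 7 markers was 40.3 to 55.7 CPM in the APPtg/CETPtg vehicle mice and 62.6 to 67.7 in the APPtg/CETPtg evacetrapib mice, again without overlap, and 48.2 to 67.6 and 51.8 to 63.8 in the CETPtg groups. All 7 were positive for evacetrapib in APPtg/CETPtg mice. The median of their log2 fold changes was 0.40, and 0 were called in edgeR, 3 at an unadjusted p below 0.05. The lowest of the 7 was at 1.63 CPM on average and none was at 0 in any mouse. In the same comparison the 8 endothelial markers were all positive (7 at an unadjusted p below 0.05). The 6 markers of pericytes and smooth muscle were also all positive (5 below 0.05). The 6 of choroid plexus epithelium were all negative (median -1.47, 4 below 0.05). None of these markers was called. Over all 18609 genes tested, 1677 were below 0.05. Some of the vessel markers, named in the next paragraph, were listed by the study from these same mice, and their treatment values are a description. The summed endothelial markers also did not overlap between these groups, at 172 to 220 CPM under vehicle and 229 to 271 under evacetrapib. Nor did those of pericytes and smooth muscle, at 98.5 to 126 and 130 to 147. Those of choroid plexus epithelium overlapped, at 11.2 to 460 under vehicle and 11.85 to 26.04 under evacetrapib. The r of the endothelial, the pericyte and smooth muscle, and the choroid plexus markers with Serping1 over 16 mice was 0.33, 0.48 and 0.15. After subtraction of the group means it was -0.29, -0.01 and 0.49. The part of any of these markers in the Serping1 values was not tested. The genes most like Serping1 were Gm20033, the macrophage gene Siglec1 and Rimklb, with r of 0.83 to 0.84.

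Markers of vessels had mostly higher values with evacetrapib. The study, with DESeq2 at the same thresholds, listed Pecam1, Flt1, Kdr and Cdh5 of the endothelial markers among genes that changed with evacetrapib. It also listed Acta2, Myh11 and Tagln of the pericyte and smooth muscle markers. These genes came from the same mice and comparison, so the treatment calls, counts and sums of both lists are a description and support nothing. The sum of 8 endothelial markers was 193 to 230 CPM in the CETPtg vehicle mice, 215 to 262 in the CETPtg evacetrapib mice, 172 to 220 in the APPtg/CETPtg vehicle mice and 229 to 271 in the APPtg/CETPtg evacetrapib mice. All 8 had a positive log2 fold change over both genotypes, with a median of 0.30, and 0 were called in edgeR. Beside 1472 of all 18609 genes, 7 of the 8 were at an unadjusted p below 0.05. Cd59a had an r of -0.50 with their mean over 16 mice and 0.20 after subtraction of the group means. The 6 markers of pericytes and smooth muscle were also all positive, with a median of 0.36, and 1 of them, the smooth muscle myosin gene Myh11, was called (log2 fold change 0.56, SE 0.080, adjusted p = 0.0193, edgeR). Their sum was 112 to 133 CPM in the CETPtg vehicle mice and 135 to 145 in the CETPtg evacetrapib mice. In the APPtg/CETPtg mice it was 98.5 to 126 under vehicle and 130 to 147 under evacetrapib. The r of their mean with Cd59a was -0.52 and 0.32 after subtraction of the group means. The 6 choroid plexus markers were all negative, with a median of -0.64 and 0 called in edgeR, 1 at an unadjusted p below 0.05. Their summed level varied from 10.1 to 460 CPM between mice. The mean log2 CPM of the choroid plexus markers had an r of 0.30 with Cd59a, and 0.24 after subtraction of the group means. The part of these markers in the Cd59a values was not tested.

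Cd55 was at 3.17 to 4.71 CPM in the CETPtg vehicle mice, 3.42 to 4.91 in the CETPtg evacetrapib mice, 3.93 to 4.87 in the APPtg/CETPtg vehicle mice and 3.41 to 5.44 in the APPtg/CETPtg evacetrapib mice. The 4 ranges overlapped. The log2 fold change was 0.11 (SE 0.11, adjusted p = 0.541, edgeR) for genotype and -0.03 (SE 0.11, adjusted p = 0.974) for evacetrapib. Other than among the C1q chains, r between pairs of the 8 genes lay between -0.32 and 0.66, with the highest for C1qb and C4b.

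**Figure D4:**
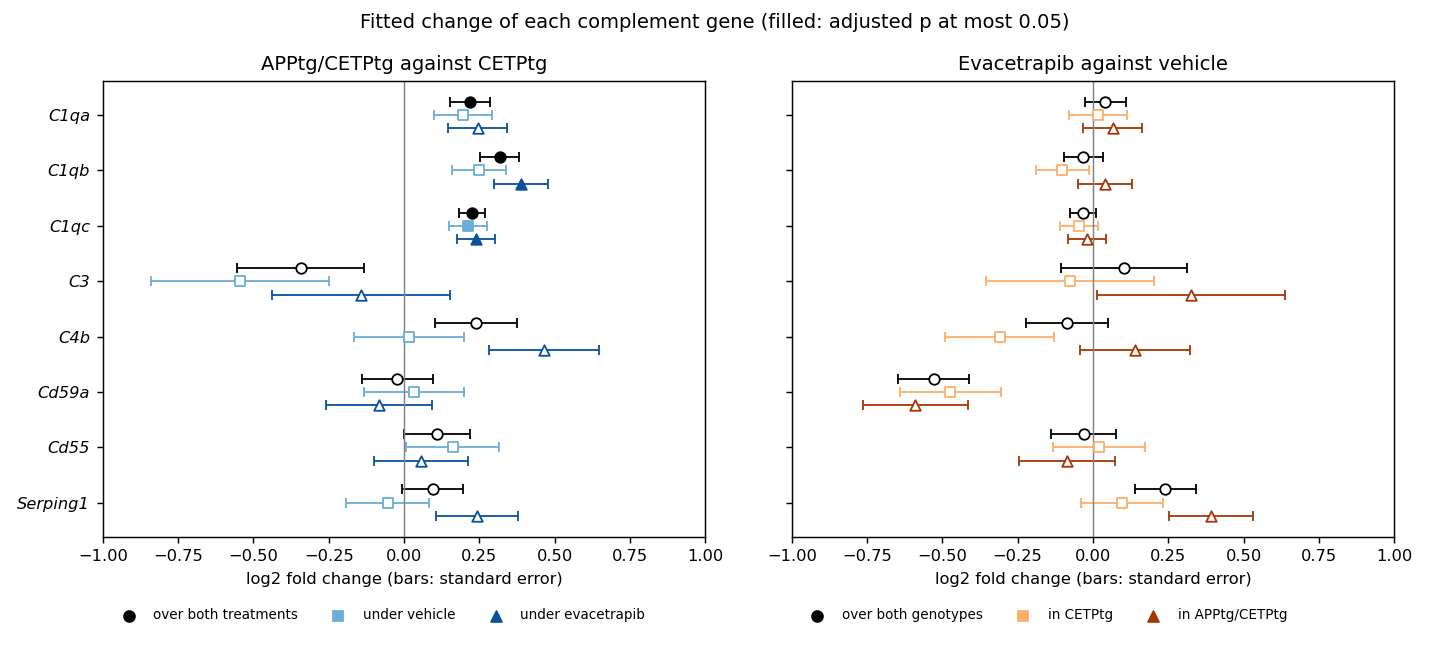
Fitted log2 fold change (points) with its standard error (bars) of each complement gene between the genotypes, left, and between the treatments, right, over all mice and within each stratum; filled points passed an adjusted p of 0.05. Only C1q genes are filled, all between the genotypes, and Cd59a lies at -0.47 to -0.59 with evacetrapib.

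The rest of the pathway was read from a list of 57 complement genes that contains the 8. Of these, 40 were tested. Of the 11 genes that start the classical pathway, 10 were tested, but only 4 of 8 of the lectin pathway, 2 of 4 of the alternative pathway and C3, and 2 of 7 of the terminal pathway, C7 and C8g. Hc (C5), C6, C8a, C8b and C9 stayed below the filter, with at most 15 counts in any mouse. The alternative pathway proteases Cfb and Cfd had at most 7 and 0 counts. Among the regulators, Clu (clusterin) was the most abundant gene of the list at 225 CPM per kb, beside 35.2 for Susd4 and 32.8 for Vtn (vitronectin). No gene of the terminal pathway exceeded 0.582 CPM per kb, the level of C8g.

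Between the genotypes over both treatments, 4 of the 40 tested genes were called, all higher in APPtg/CETPtg mice, beside 17.7% of all genes called and 9.35% called as higher. Beside the C1q chains this was Itgb2, the beta chain of complement receptors CR3 and CR4, at 7.28 against 6.11 CPM (log2 fold change 0.26, SE 0.087, adjusted p = 0.0459, edgeR). The median log2 fold change of the 32 tested genes outside the 8 was 0.02, with 18 positive and 14 negative, beside 0.0046 over all genes. Those with the greatest size were the ficolin gene Fcna (0.47, SE 0.47), Itgax (0.46, SE 0.39), which encodes the alpha chain of CR4, and C5ar2 (-0.40, SE 0.22), a C5a receptor, none of them called. Fcna, Itgax and C5ar2 had at most 15, 57 and 45 counts in any mouse. In no other comparison was any of the 32 called in edgeR. With evacetrapib over both genotypes their median was -0.01, with 14 positive and 18 negative. Of the 32, 4 were at an unadjusted p below 0.05, beside 1472 of all 18609 genes. Itgax (-0.50, SE 0.39), Cd93 (0.49, SE 0.13, adjusted p = 0.290), a receptor found on endothelium, and Cpn1 (-0.46, SE 0.20), a carboxypeptidase that inactivates anaphylatoxins, had the greatest size. Cpn1 had at most 33 counts in any mouse.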

How the data were processed

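Poly(A) RNA from bulk brain was made into directional libraries and sequenced as read pairs. The authors trimmed the reads with Trimmomatic 0.39, aligned them to mm10 with STAR 2.7.8a and deposited raw HTSeq counts per gene, without normalization. The annotation and strand setting of the counting are not given in the sources used here. Each of the 16 samples is a mouse, grouped by the labels, and 0 columns were unmapped.

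TMM scaling and two-sided quasi-likelihood F-tests (edgeR 4.0.16, R 4.3.3) were applied to these counts. P-values were adjusted by Benjamini-Hochberg over the 18609 genes that reached 10 counts in 4 mice or more. Treatment was fitted with a genotype term, genotype with a treatment term, and effects within strata and their difference in a model of 4 group means. Log2 CPM had a prior count of 2. The alternatives tried were DESeq2 1.42.0, its size factors, limma-voom (limma 3.58.1), other filters and thresholds, a plate row term, each mouse left out and, added after seeing the data, a replicate term. The model was tested on simulated counts.

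The 8 genes and the lists were chosen with earlier results of these data known. Named genes are the 8, their copies, the 3 most alike in log2 CPM, of the wider list those called and the 3 with the greatest fold change over all mice, and markers. App and Thy1 check the labels. Positions, exon lengths and coding sequences are from GENCODE M21 (GRCm38), promoters from RefSeq (GRCm38.p6). Depth was 21391335 to 55453789 counts per mouse, and a gene at 1 CPM thus rests on few counts.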

Additional observations from a re-analysis of the deposited data

Results flagged for a closer look

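In each gene and group of 4 mice, 32 in all, the highest or lowest mouse was compared with the range of its group. Chance alone marks about 1 in 20 such groups, and 3 were marked. C1qa in the CETPtg evacetrapib group was at 44.3 CPM in mouse B and at 33.6 to 34.6 in the other mice. C1qb in the same group was at 48.2 CPM in mouse B and at 37.7 to 38.1 in the others. Both marks come from 1 mouse, whose C1qc was also the highest of its group, at 43.1 CPM. Cd55 in the APPtg/CETPtg vehicle group was at 3.93 CPM in mouse S7 and at 4.72 to 4.87 in the others.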

How the results depend on the processing

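The 3 C1q calls between the genotypes over both treatments held under all 10 other settings tried, and 2 to 3 genes were called on leaving out each mouse. With evacetrapib over both genotypes, the count of the 8 genes called was 1 in place of 0 with the Wald test of DESeq2 and without a filter on low counts. That gene was Cd59a, which its treatment values chose, so the count supports nothing, and 0 of the other 7 genes were called in either setting. Between the genotypes under vehicle, 2 genes were called in place of 1 at an adjusted p of at most 0.1 and without a filter, and 0 to 2 on leaving out each mouse. Under evacetrapib, 1 was called in place of 2 with the size factors of DESeq2 and with only the 8 mice compared, and 0 to 3 on leaving out each mouse. Without a filter the 2 genes called under evacetrapib were C1qb and C4b. The causes were not tested.

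Small log2 fold changes that were not called turned sign on leaving out a mouse. The ranges given here are over all the alternatives tried, among them the fits without a mouse. With evacetrapib over both genotypes the range was -0.0020 to 0.074 for C1qa and -0.082 to 0.018 for Cd55. In CETPtg mice it was -0.080 to 0.076 for C1qa, -0.29 to 0.096 for C3, -0.073 to 0.11 for Cd55 and -0.012 to 0.20 for Serping1. In APPtg/CETPtg mice it was -0.0041 to 0.14 for C1qa, -0.023 to 0.097 for C1qb, -0.042 to 0.023 for C1qc, -0.050 to 0.28 for C4b and -0.22 to 0.011 for Cd55. For the difference between the effects it was -0.022 to 0.15 for C1qa and -0.015 to 0.087 for C1qc. Between the genotypes it was -0.088 to 0.025 for Cd59a over both treatments. Under vehicle it was -0.13 to 0.14 for C4b, -0.087 to 0.15 for Cd59a and -0.17 to 0.042 for Serping1, and under evacetrapib -0.36 to 0.061 for C3, -0.19 to 0.00050 for Cd59a and -0.087 to 0.14 for Cd55. With limma-voom, Cd59a was at 0.021 between the genotypes over both treatments and C4b at -0.0035 under vehicle.

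Counts over all genes moved by over 1.5 times in several settings. With evacetrapib over both genotypes 2 genes were called, but 57 with DESeq2, 35 without a filter, 1 without the genotype term, 3 with the replicate block and 0 to 8 on leaving out each mouse. In APPtg/CETPtg mice 8 were called, but 73 with DESeq2, 88 without a filter, 2 with only the 8 mice compared, 5 with the replicate block and 0 to 14 on leaving out each mouse. In CETPtg mice 9 were called without a filter in place of 0. For the difference between the effects 29 were called without a filter, 2 with DESeq2 and 2 with a term for the plate row, in place of 0. Between the genotypes under vehicle 1934 were called, but 3007 at an adjusted p of at most 0.1 and 909 to 1998 on leaving out each mouse. Under evacetrapib 556 were called, but 1260 at an adjusted p of at most 0.1, 1135 with DESeq2, 351 with only the 8 mice compared and 91 to 858 on leaving out each mouse.

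Mice with the same number in the header of the count table did not deviate together (r of -0.20 to 0.17 over 24 pairs), so the numbers pair no mice. With a replicate block the same 3, 1 and 2 C1q genes were called between the genotypes over both treatments, under vehicle and under evacetrapib, and C4b was at -0.00065 under vehicle. Depth was least behind C3, Cd55, Cd59a and Serping1, with 21 to 401 counts per mouse.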
